A study of Mus musculus with 79 samples.

Results

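The RNA that an antibody to GFP pulled down from lumbar dorsal root ganglia 72 h after sciatic nerve crush was compared with the RNA pulled down in the same way from uninjured mice. The comparison used the 7 pulldown (IP) libraries at 72 h and the 7 naive IP libraries, 14 of the 79 libraries of the study and 14 of its 39 IP libraries, taken by their labels. All mice, naive ones included, were of the BAC-TRAP BR145-GFP line, the ganglia were those of segments L4-5, and in injured mice the sciatic nerve was crushed on both sides. The promoter that drives the GFP in this line, the cells that carry it, and the age and sex of the mice are not stated in the labels. Nothing in the labels says that the libraries of a group came from separate animals, so that part of the spread between them may be technical.

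Dorsal root ganglia hold the cell bodies of sensory neurons, whose axons run in the sciatic nerve, together with satellite glia, Schwann cells, vessels and macrophages. In translating ribosome affinity purification (TRAP), GFP is carried by a ribosomal protein in chosen cells, so that an antibody to GFP brings down ribosomes and the RNA on them. After a crush of the peripheral axon, sensory neurons are known to switch on transcription factors of the injury response and a set of growth-associated genes, and to change their neuropeptides and ion channels.

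The naive IP libraries held 4699012 to 11667251 gene counts and the 72 h IP libraries 4952958 to 11854332. Rn45s, the ribosomal RNA precursor, and Lars2, a gene with a stretch like rRNA, together made up 9.86% to 40.2% of counts in naive libraries (median 32.1%) and 9.50% to 21.9% at 72 h (median 20.9%), a difference with a two-sided exact permutation p of 0.0606. Naive replicate 6 and 72 h replicate 5 stood apart: 29 and 60 genes reached 10 CPM (counts scaled by TMM to library size) in them and stayed under 1 CPM in the other libraries of their group, against 0 to 3 such genes elsewhere. They also lay farthest out on the principal component that held 25.5% of the variance. More counts fell on the Y-linked Ddx3y than on Xist in 1 naive and 2 of the 72 h libraries.

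All 4 defining markers of neurons had levels of over 100 CPM in every library. Rbfox3, which encodes the neuronal nuclear protein NeuN, was at 143 to 196 CPM in naive and 107 to 151 CPM in 72 h libraries, and Uchl1 at 1635 to 2390 and 1639 to 2630 CPM. Neither passed the test used below, nor did Tubb3, a neuronal tubulin, at 1055 to 1432 CPM in naive and 1455 to 2296 CPM in 72 h libraries. Snap25, a protein of synaptic release, passed as lower, at 702 to 1425 and 313 to 703 CPM. Markers of other cells were present as well. The fibroblast gene Dcn was at 352 to 920 CPM in naive and 335 to 542 CPM in 72 h libraries, and the macrophage gene Csf1r at 10.4 to 64.5 and 15.3 to 44.6 CPM. In the erythrocyte pair, Hba-a1 had no count in 3 of 7 libraries of each group. The adipocyte marker Adipoq also passed as lower, while none of the Schwann cell, satellite glia, macrophage, neutrophil, lymphocyte, fibroblast, endothelial, mural or skeletal muscle markers of this check passed.

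Of 18656 genes tested with edgeR's quasi-likelihood test, 317 were higher at 72 h (1.70% of those tested) and 160 were lower (0.858%) at a Benjamini-Hochberg adjusted p under 0.05. Among the higher genes 220 had risen at least 2-fold, 72 at least 4-fold and 38 at least 8-fold. Among the lower genes 71 had fallen at least 2-fold and 14 at least 4-fold. The median log2 change was 1.26 over the higher genes, -0.96 over the lower genes and -0.05 over all genes tested. All 7 libraries at 72 h lay above all 7 naive libraries for 284 genes (1.52%), 225 of which passed the test, and below them for 138 genes (0.74%), 81 of which passed. Without naive replicate 6 and 72 h replicate 5 together the counts were 261 and 82, and leaving out any 1 of the 72 h libraries or naive replicate 4 left 83 to 102 lower genes. Within the libraries with over 15% of counts on Rn45s and Lars2 they were 258 and 122, and within those under 15% (2 naive and 3 at 72 h) they were 420 and 354. Fewer cells of a type and less RNA per cell cannot be told apart in such tissue RNA.

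**Figure D1:**
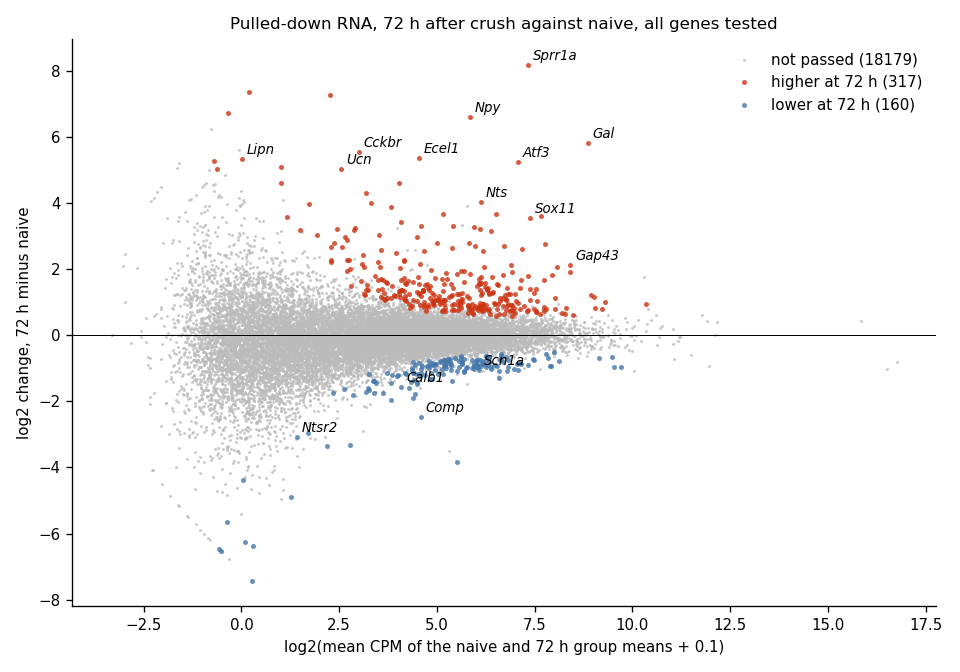
Log2 change of each of the 18656 genes tested (72 h minus naive, vertical axis) against its level, log2 of the mean CPM plus 0.1 (horizontal axis), with the 317 higher genes in red and the 160 lower genes in blue. The rises reach further from 0 than the falls among genes of more than a few CPM, where Sprr1a, Npy and Gal stand highest, while Ntsr2 and Comp are the lowest of the labelled genes. Lipn, with 2 counts in naive libraries, stands at its fitted value, which is no bound.

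Sprr1a, Ecel1 and Cckbr, which mark injured sensory neurons, went from traces to clear levels. Sprr1a, a protein of the epidermal envelope known to promote axon growth, was at 0 to 7.18 CPM (median 0.259) in naive libraries and 222 to 421 CPM (median 336) at 72 h. The groups did not overlap, although naive replicate 1, at 7.18 CPM, was the highest of the naive libraries, and the log2 change with its standard error (SE) was 8.16 ± 0.73, adjusted p = 6.62e-10. Ecel1, a membrane metalloprotease of damaged neurons, was at 0 to 3.68 CPM (median 0.582) in naive libraries and 32.9 to 57.1 CPM (median 42.1) at 72 h. Every library at 72 h lay above every naive library (log2 change 5.34 ± 0.74, adjusted p = 6.24e-06). Cckbr, the cholecystokinin B receptor, was at 0 to 1.36 CPM (median 0.166) in naive libraries and 9.12 to 25.5 CPM (median 13.8) at 72 h. Its groups were apart too, at a level well below that of Sprr1a (log2 change 5.53 ± 0.57, adjusted p = 4.81e-10).

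**Figure D2:**
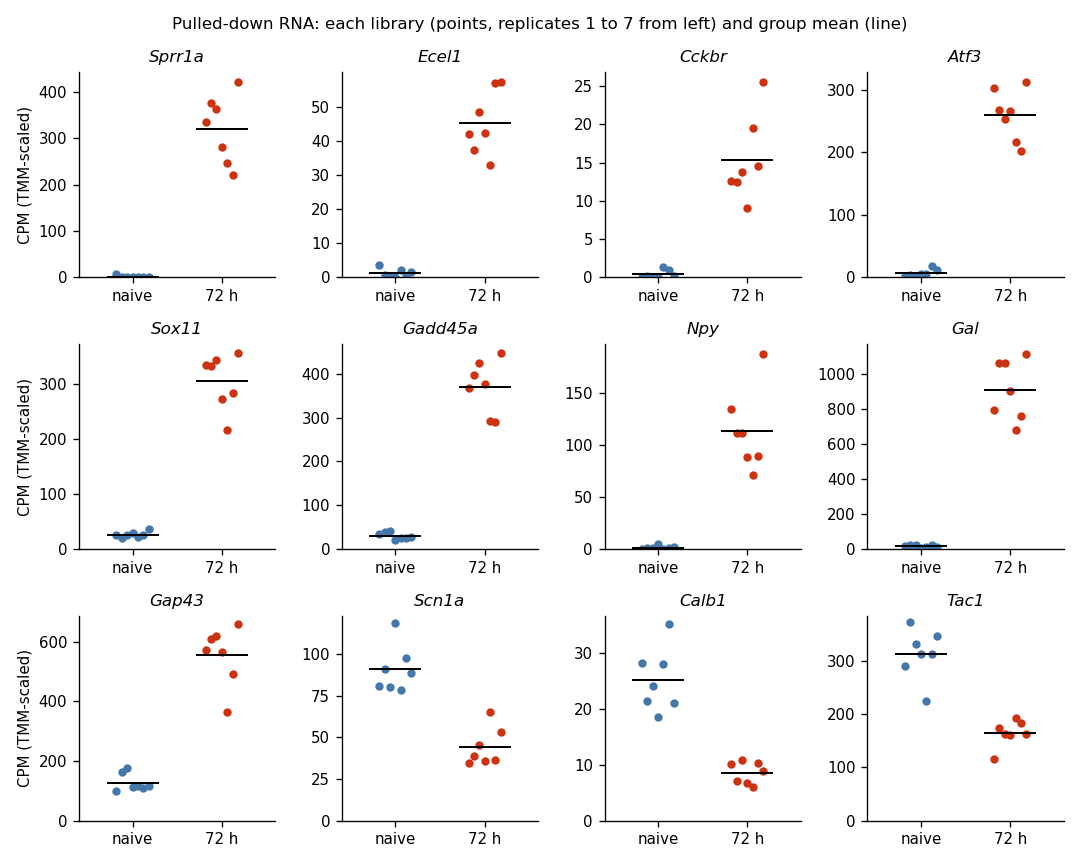
Level of 12 genes in each of the 7 naive (blue) and 7 72 h (red) IP libraries, in TMM-scaled CPM from 0, with the mean of each group as a line. In all 12 panels the groups are apart: the first 9 genes are higher at 72 h, while Scn1a, Calb1 and Tac1 are lower.

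Transcription factors of the injury response rose in part. Of these, 7 of 28 tested members rose and 0 fell, with a median log2 change of 0.46. Without naive replicate 6 and 72 h replicate 5, 6 members were higher and 0 lower. Atf3, a leucine-zipper factor induced by axon injury, was at 2.21 to 17.9 CPM (median 5.11) in naive libraries and 202 to 312 CPM (median 266) at 72 h. Even the highest naive library, replicate 6, was far below the lowest at 72 h (log2 change 5.25 ± 0.37, adjusted p = 1.43e-14). Sox11, which supports axon regrowth, was at 20.4 to 35.5 CPM (median 25.2) in naive libraries and 216 to 356 CPM (median 332) at 72 h. The 7 naive libraries lay close together, and Sox11 had the smallest adjusted p of all genes (log2 change 3.55 ± 0.22, adjusted p = 1.37e-16). Jun, the AP-1 factor needed for regeneration, was at 84.5 to 153 CPM (median 98.4) in naive libraries and 223 to 328 CPM (median 271) at 72 h. It was already abundant in naive ganglia, and its groups stayed apart (log2 change 1.39 ± 0.18, adjusted p = 3.29e-07).

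Klf6, a zinc-finger factor linked to axon growth, and Smad1, which carries bone morphogenetic protein signals, rose by about 1 log2 unit. Klf6 was at 55.6 to 83.9 CPM (median 69.3) in naive libraries and 94.0 to 170.3 CPM (median 146) at 72 h, with groups that did not overlap (log2 change 1.07 ± 0.20, adjusted p = 0.000254). Smad1 was at 50.2 to 91.9 CPM (median 61.2) in naive libraries and 61.8 to 156 CPM (median 142) at 72 h. One library at 72 h, replicate 5, at 61.8 CPM, fell among the naive ones (log2 change 1.03 ± 0.21, adjusted p = 0.00116). Stat3, the transducer of gp130 cytokines, and Nfil3, a factor of the CREB-ATF group, passed closely, with log2 changes of 0.66 (adjusted p = 0.0432) and 1.94 (adjusted p = 0.0485). Those calls were lost when any 1 of 9 and any 1 of 12 of the 14 libraries was left out. Fosl1, an AP-1 gene counted among the immediate early genes, was at 0 to 1.29 CPM (median 0.68) in naive libraries and 1.46 to 11.1 CPM (median 3.87) at 72 h. It rose from a low level (log2 change 3.17 ± 0.82, adjusted p = 0.0187). The call of Fosl1 was lost without naive replicate 6 and 72 h replicate 5 together, and within the libraries under 15% Rn45s and Lars2. Other factors of the list did not pass: Atf4 had a log2 change of 0.42 ± 0.15, adjusted p = 0.158, Cebpd 0.38 ± 0.28, adjusted p = 0.679, Sox4 -0.16 ± 0.26, adjusted p = 0.905, Klf4 -0.23 ± 0.51, adjusted p = 0.935 and Myc 0.52 ± 0.33, adjusted p = 0.597.

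The windows from 250 bases before to 50 after the annotated starts of leading rising genes are shown because they hold a motif of the AP-1, CRE or C/EBP-ATF families, to which Jun, Fosl1 and Atf3 belong. Sequences are from RefSeq on GRCm38.p6, written 5′ to 3′ on the gene's strand, and capitals mark TGANTCA (the AP-1 motif), TGACGTCA (the CRE motif) or TGATGCAA (the C/EBP-ATF motif), each searched on both strands. No one of these strings contains another.
Sprr1a (chr3:92485832-92486131, minus strand): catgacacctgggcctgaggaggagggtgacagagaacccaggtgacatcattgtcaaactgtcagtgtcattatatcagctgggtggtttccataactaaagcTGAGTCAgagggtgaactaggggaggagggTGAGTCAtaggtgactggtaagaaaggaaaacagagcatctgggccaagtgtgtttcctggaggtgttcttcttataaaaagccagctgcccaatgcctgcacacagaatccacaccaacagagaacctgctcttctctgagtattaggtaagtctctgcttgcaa
Atf3 (chr1:191183284-191183583, minus strand): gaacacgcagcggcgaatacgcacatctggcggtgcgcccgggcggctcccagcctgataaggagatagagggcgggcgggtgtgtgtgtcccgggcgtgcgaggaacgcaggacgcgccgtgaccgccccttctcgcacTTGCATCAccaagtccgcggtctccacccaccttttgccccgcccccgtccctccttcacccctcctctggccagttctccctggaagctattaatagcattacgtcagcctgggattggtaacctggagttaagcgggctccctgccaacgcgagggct
Nts (chr10:102490369-102490668, minus strand): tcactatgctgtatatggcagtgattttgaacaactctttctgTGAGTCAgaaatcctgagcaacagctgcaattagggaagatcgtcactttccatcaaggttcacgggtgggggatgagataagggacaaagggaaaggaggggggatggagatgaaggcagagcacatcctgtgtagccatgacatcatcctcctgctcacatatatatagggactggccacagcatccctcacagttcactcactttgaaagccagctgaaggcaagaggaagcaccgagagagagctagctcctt
Ucn (chr5:31138846-31139145, minus strand): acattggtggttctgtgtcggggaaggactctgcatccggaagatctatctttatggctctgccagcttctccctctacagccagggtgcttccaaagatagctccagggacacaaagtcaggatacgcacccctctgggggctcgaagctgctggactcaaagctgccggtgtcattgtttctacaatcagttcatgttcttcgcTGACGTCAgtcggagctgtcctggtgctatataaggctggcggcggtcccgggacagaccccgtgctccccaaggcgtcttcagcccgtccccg
Aars (chr8:111033592-111033891, plus strand): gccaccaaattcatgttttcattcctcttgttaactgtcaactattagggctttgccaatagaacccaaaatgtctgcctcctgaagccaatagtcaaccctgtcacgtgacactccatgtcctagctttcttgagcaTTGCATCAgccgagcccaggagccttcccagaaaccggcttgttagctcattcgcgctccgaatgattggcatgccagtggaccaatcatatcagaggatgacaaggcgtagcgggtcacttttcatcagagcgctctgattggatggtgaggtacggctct

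The Sprr1a window held the AP-1 motif at 2 places, beginning 146 and 116 bases before the start. In Atf3 and Aars the C/EBP-ATF motif stood at 110 and 112 bases before the start, in Nts the AP-1 motif at 207 bases and in Ucn the CRE motif at 44 bases. The windows of Gal, Npy, Sox11, Gadd45a, Cckbr and Ecel1 held none of these letters. Of the tested genes, 13743 had a window, and 7.56% of those held TGANTCA, 3.01% TGACGTCA and 0.83% TGATGCAA. Among the 245 rising genes with a window the shares were 9.80% (24 genes), 2.04% (5 genes) and 2.86% (7 genes). For the 115 falling genes they were 4.35% (5 genes), 4.35% (5 genes) and 0 genes. A gene with several windows was counted once, when any of them held the motif. A match is a description of letters, and no test was made of these shares.

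Growth-associated effector genes had the largest share of rising members among the 45 lists: 32 of 54 tested members rose and 1 fell, with a median log2 change of 1.34. In 31 of the 54 the 72 h libraries lay above all naive libraries, against 284 of all 18656 genes tested (1.52%). Gadd45a, a stress protein linked to growth arrest and DNA repair, was at 21.1 to 40.1 CPM (median 27.7) in naive libraries and 291 to 447 CPM (median 377) at 72 h. No library of one group came near the other (log2 change 3.59 ± 0.24, adjusted p = 7.57e-16). Kif22, a kinesin-like protein that binds chromosomes, was at 5.62 to 24.1 CPM (median 10.9) in naive libraries and 114 to 239 CPM (median 155) at 72 h. Replicate 1 was the highest library in both groups, and the groups were apart (log2 change 3.67 ± 0.27, adjusted p = 1.33e-14). Stmn4, a microtubule-destabilising stathmin, was at 7.56 to 25.4 CPM (median 17.0) in naive libraries and 96.7 to 193 CPM (median 158) at 72 h, without overlap (log2 change 3.16 ± 0.26, adjusted p = 2.63e-13). Gap43, a protein of the growth cone, was at 100.4 to 177 CPM (median 115) in naive libraries and 365 to 660.1 CPM (median 571) at 72 h. It was abundant before injury, and each 72 h library exceeded each naive one by a factor of at least 2 (log2 change 2.12 ± 0.20, adjusted p = 2.26e-11).

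Other members of this list with small adjusted p were Sez6l, a complement-domain membrane protein of neurons (log2 change 3.29, adjusted p = 1.52e-13), Itga7, an integrin that binds laminin (2.75, adjusted p = 5.72e-13), Flrt3, an adhesion and guidance protein (2.69, adjusted p = 1.04e-12), and Sema6a, a membrane semaphorin (2.79, adjusted p = 1.93e-11). Cdkn1a, an inhibitor of the cell cycle, was at 57.5 to 90.2 CPM (median 75.4) in naive libraries and 186 to 317 CPM (median 246) at 72 h. It rose without overlap (log2 change 1.79 ± 0.24, adjusted p = 3.39e-07). The only member that fell was Nrn1, which encodes neuritin, with a log2 change of -1.06 (adjusted p = 0.00017), although its name stands among growth genes. The members were chosen with results of these data known, so that their shared direction is no independent evidence. Without naive replicate 6 and 72 h replicate 5, 29 members were higher and 1 lower.

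**Figure D3:**
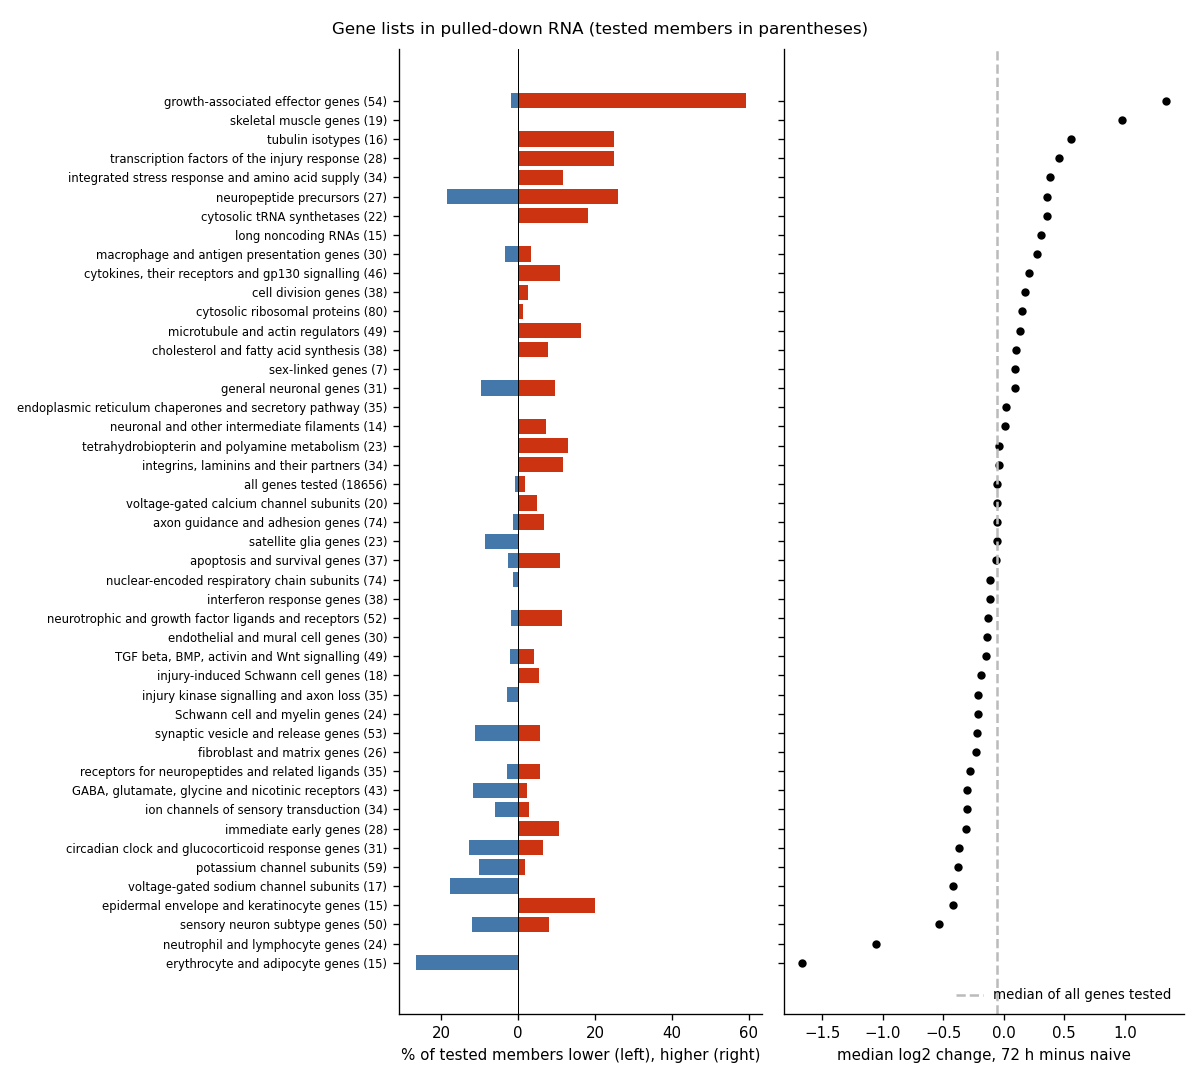
For each gene list (tested members in parentheses), the percentage of tested members that fell (blue, left of 0) or rose (red, right of 0), and the median log2 change in the right panel with the median of all genes tested as a dashed line. Growth-associated genes (32 of 54 higher) stand at the top, and erythrocyte and adipocyte genes (4 of 15 lower) at the bottom.

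Neuropeptide genes moved in both directions. Among them, 7 of 27 tested members rose and 5 fell, with a median log2 change of 0.36. Without naive replicate 6 and 72 h replicate 5, 7 members were higher and 3 lower. Those that rose in all libraries together included peptides nearly silent in naive ganglia. Crh, corticotropin-releasing hormone, had 3 counts in the 7 naive libraries together and 757 at 72 h, a ratio of depth-scaled counts of 178 (95% counting interval 60.7 to 865). Its 72 h libraries ran from 4.13 to 14.1 CPM (median 10.7), against none above 0.13 CPM in naive ones (adjusted p = 3.64e-08). Npy, neuropeptide Y, was at 0 to 5.23 CPM (median 0.519) in naive libraries and 71.2 to 188 CPM (median 112) at 72 h. The naive high value was replicate 4, still far under the lowest at 72 h (log2 change 6.60 ± 0.57, adjusted p = 8.66e-11). Gal, galanin, was at 7.36 to 24.3 CPM (median 15.3) in naive libraries and 681 to 1115 CPM (median 899) at 72 h. The groups were far apart (log2 change 5.80 ± 0.47, adjusted p = 1.93e-11).

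Ucn, urocortin, a ligand of the same receptors as Crh, was at 0 to 0.775 CPM (median 0.17) in naive libraries and 5.12 to 15.7 CPM (median 11.3) at 72 h. It rose without overlap (log2 change 5.03 ± 0.84, adjusted p = 5.05e-05). Nts, neurotensin, was at 2.21 to 12.4 CPM (median 7.52) in naive libraries and 75.4 to 170.2 CPM (median 139) at 72 h. Replicate 5 was the lowest at 72 h and still lay above all naive libraries (log2 change 4.02 ± 0.32, adjusted p = 2.63e-13). Vgf, a secreted precursor of several peptides, was at 16.0 to 31.4 CPM (median 20.1) in naive libraries and 94.2 to 147 CPM (median 131) at 72 h, and Adcyap1, which encodes PACAP, at 24.6 to 46.1 CPM (median 36.4) in naive libraries and 85.4 to 118 CPM (median 109) at 72 h. Both kept their groups apart, with log2 changes of 2.53 ± 0.18, adjusted p = 4.35e-15 and 1.59 ± 0.21, adjusted p = 6.26e-07. Vip, which was not among the genes tested, had 1 count in the naive libraries together and 15 at 72 h, a ratio of 10.6 with an interval of 1.63 to 446, and for Galp the counts were 2 and 5, a ratio of 1.76 (0.289 to 18.5). These intervals allow for counting error alone, as PCR copies without molecular identifiers were counted too.

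Tac1, which encodes substance P, was at 224 to 372 CPM (median 314) in naive libraries and 116 to 192 CPM (median 162) at 72 h. All 72 h libraries lay below all naive ones (log2 change -0.93 ± 0.16, adjusted p = 0.000116). Nmb, neuromedin B, was at 139 to 225 CPM (median 167) in naive libraries and 83.9 to 121 CPM (median 99.5) at 72 h, also without overlap (log2 change -0.83 ± 0.18, adjusted p = 0.00277). The granins Chgb, Scg2 and Scg3, proteins of dense-core vesicles, fell by 0.69, 0.62 and 0.58 log2 units with overlapping groups. Their adjusted p were 0.0191, 0.038 and 0.0247, and these calls were lost when any 1 of 8, 12 and 8 of the 14 libraries was left out. Calca, the gene of CGRP, was at 332 to 611 CPM (median 408) in naive libraries and 283 to 442 CPM (median 312) at 72 h and did not pass (log2 change -0.39 ± 0.19, adjusted p = 0.389). Penk and Sst did not pass either, with log2 changes of 1.05 ± 0.44, adjusted p = 0.271 and -1.08 ± 0.65, adjusted p = 0.554.

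In the receptors for neuropeptides and related ligands, 2 of 35 tested members rose and 1 fell (2 and 0 without the 2 outlying libraries), with a median log2 change of -0.28. Besides Cckbr, Gpr151, an orphan receptor of sensory neurons, was at 0 to 7.55 CPM (median 0) in naive libraries and 18.8 to 47.1 CPM (median 26.8) at 72 h and rose. Naive replicate 1 at 7.55 CPM was the one naive library above 2 CPM, and the groups did not overlap (log2 change 4.60 ± 0.77, adjusted p = 0.000146). Ntsr2, a neurotensin receptor, was low in both groups, at 1.36 to 12.4 CPM (median 3.24) in naive libraries and 0.077 to 0.894 CPM (median 0.584) at 72 h, and fell (log2 change -3.08 ± 0.79, adjusted p = 0.0182). Its call was lost without 72 h replicate 3, 72 h replicate 7 or naive replicate 6, where the log2 change ran from -2.95 to -2.62. The peptide Nts rose and its receptor gene Ntsr2 fell in the same libraries.

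Voltage-gated sodium channels, which carry the upstroke of the action potential, leaned downward: 0 of 17 tested members rose and 3 fell (0 and 2 without the 2 outlying libraries), with a median log2 change of -0.42, and 2 of the 17 log2 changes were above 0. Scn1a, which encodes Nav1.1, was at 78.8 to 119 CPM (median 88.5) in naive libraries and 34.6 to 65.5 CPM (median 39.1) at 72 h. The groups were apart (log2 change -1.04 ± 0.18, adjusted p = 0.000154). Scn11a, the Nav1.9 gene of nociceptors, was at 93.2 to 148 CPM (median 130.1) in naive libraries and 58.1 to 95.3 CPM (median 75.7) at 72 h, with some overlap (log2 change -0.73 ± 0.16, adjusted p = 0.00293). Scn2b, a beta subunit, was at 24.3 to 36.7 CPM (median 26.5) in naive libraries and 7.04 to 17.6 CPM (median 16.8) at 72 h. It did not overlap, but its call (log2 change -0.91 ± 0.25, adjusted p = 0.0343) was lost when any 1 of 10 of the 14 libraries was left out. The nociceptor channels Scn10a and Scn9a had log2 changes of -0.55 ± 0.20, adjusted p = 0.184 and -0.11 ± 0.15, adjusted p = 0.875, and Scn3a, a channel of embryonic neurons, had 0.06 ± 0.39, adjusted p = 0.986, none of which passed.

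Potassium channel subunits, which set firing and repolarisation, gave 1 higher and 6 lower of 59 tested (1 and 3 without the 2 outlying libraries), with a median log2 change of -0.38. Kcna2, a channel of the juxtaparanode, was at 130.0 to 238 CPM (median 190.4) in naive libraries and 74.7 to 119 CPM (median 102) at 72 h, without overlap (log2 change -0.87 ± 0.18, adjusted p = 0.00197). Dpp10, an auxiliary subunit of A-type channels, was at 30.0 to 53.4 CPM (median 42.0) in naive libraries and 13.6 to 21.7 CPM (median 16.9) at 72 h, and its 72 h libraries were all below the naive ones (log2 change -1.33 ± 0.29, adjusted p = 0.0025). Kcnmb1, fell with overlap, by 1.45 log2 units (adjusted p = 0.00897), a call lost without the 2 outlying libraries. The member that rose was Kcnmb4, a beta subunit of the BK channel (log2 change 1.12, adjusted p = 0.015).

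Among 20 tested calcium channel subunits 1 passed. Cacna2d1, the alpha2delta subunit that binds gabapentin, was at 84.3 to 116 CPM (median 106) in naive libraries and 311 to 595 CPM (median 371) at 72 h. The lowest 72 h library was above 2 times the highest naive one (log2 change 2.06 ± 0.19, adjusted p = 1.93e-11), while Cacna1a had 0.32 ± 0.16, adjusted p = 0.42 and Cacna1b 0.50 ± 0.22, adjusted p = 0.307. Of 34 channels of sensory transduction, P2rx3, the ATP-gated channel of nociceptors, was at 32.2 to 66.3 CPM (median 51.1) in naive libraries and 70.7 to 111 CPM (median 85.6) at 72 h. It rose, and its groups did not overlap (log2 change 0.82 ± 0.17, adjusted p = 0.00134). Htr3a, a serotonin-gated channel, was at 14.6 to 44.5 CPM (median 37.4) in naive libraries and 2.64 to 14.9 CPM (median 8.80) at 72 h. One library at 72 h reached just above the lowest naive one (log2 change -1.91 ± 0.34, adjusted p = 0.000146). Ano3, of the anoctamin family, fell too (log2 change -0.94 ± 0.17, adjusted p = 0.000275). In the GABA, glutamate, glycine and nicotinic receptors, 1 of 43 tested members rose and 5 fell (1 and 3 without the 2 outlying libraries), with a median log2 change of -0.30. Grik1, a kainate receptor, and Glrb, the beta subunit of the glycine receptor, fell without overlap (log2 changes -0.90 ± 0.20, adjusted p = 0.00296 and -0.91 ± 0.21, adjusted p = 0.00571).

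Genes that tell sensory neuron subtypes apart gave 4 higher and 6 lower of 50 (2 and 4 without the 2 outlying libraries), with a median log2 change of -0.53. Calb1, a calcium-binding protein, was at 18.6 to 35.3 CPM (median 24.1) in naive libraries and 5.95 to 10.8 CPM (median 8.86) at 72 h. All libraries at 72 h were below all naive ones (log2 change -1.56 ± 0.25, adjusted p = 3.2e-05). In the GDNF family, Gfra1, the receptor for GDNF, was at 18.3 to 66.3 CPM (median 52.9) in naive libraries and 95.7 to 155 CPM (median 124) at 72 h, and Gfra2, the receptor for neurturin, at 33.2 to 69.4 CPM (median 49.9) in naive libraries and 13.2 to 32.4 CPM (median 20.9) at 72 h. Gfra1 rose (log2 change 1.30 ± 0.19, adjusted p = 3.77e-06) and Gfra2 fell (log2 change -1.16 ± 0.23, adjusted p = 0.000683), both without overlap, and their shared partner Ret rose by 0.76 log2 units (adjusted p = 0.0249). Gfra3, the receptor for artemin, and Il31ra, an itch receptor, rose with log2 changes of 1.36 and 1.36 (adjusted p = 0.0244 and 0.0165). Whether the calls of Ret, Gfra3 and Il31ra held when libraries were left out was not followed gene by gene. Cntnap2, an axonal adhesion protein, fell (log2 change -0.86 ± 0.16, adjusted p = 0.000381), and Pvalb, a marker of proprioceptors, did not pass (-0.39 ± 0.27, adjusted p = 0.643).

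For neurotrophic and growth factors and their receptors, 6 of 52 tested members rose and 1 fell (4 and 1 without the 2 outlying libraries), with a median log2 change of -0.13, the GDNF receptors among them. Bdnf, a neurotrophin, was at 16.2 to 27.7 CPM (median 19.7) in naive libraries and 34.6 to 50.5 CPM (median 43.0) at 72 h. It rose without overlap (log2 change 1.06 ± 0.21, adjusted p = 0.000674). Igfbp3, which binds insulin-like growth factors, was at 3.29 to 11 CPM (median 5.97) in naive libraries and 22.2 to 36.6 CPM (median 29.8) at 72 h, and again every 72 h library was above every naive one (log2 change 2.26 ± 0.26, adjusted p = 6.04e-09). The neurotrophin receptor Ngfr did not pass (-0.24 ± 0.20, adjusted p = 0.76). In the TGF beta, BMP, activin and Wnt list, 2 of 49 tested members rose and 1 fell, with a median log2 change of -0.14. Inhbb, an activin subunit, was at 0.34 to 5.44 CPM (median 2.32) in naive libraries and 12.3 to 16.5 CPM (median 14.4) at 72 h (log2 change 2.42 ± 0.58, adjusted p = 0.00967), and Dkk3 fell by 0.88 log2 units (adjusted p = 0.0286), a call lost when any 1 of 8 of the 14 libraries was left out.

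Of the cytokine and gp130 list, 5 of 46 tested members rose and 0 fell (4 and 0 without the 2 outlying libraries), with a median log2 change of 0.21. Csf1, the macrophage growth factor that injured sensory neurons make, was at 1.47 to 8.68 CPM (median 4.93) in naive libraries and 26.6 to 49.9 CPM (median 38.9) at 72 h. Its 72 h libraries were all above 3 times the highest naive one (log2 change 2.96 ± 0.32, adjusted p = 1.35e-09). Socs3, a feedback inhibitor of Stat3, was at 0 to 2.66 CPM (median 1.19) in naive libraries and 7.09 to 28.9 CPM (median 9.13) at 72 h. It rose without overlap (log2 change 3.25 ± 0.52, adjusted p = 2.15e-05). Il4ra, the interleukin-4 receptor, and Tnfrsf12a, the receptor for TWEAK, rose with slight overlap (log2 changes 1.96 ± 0.29, adjusted p = 3.58e-06 and 2.07 ± 0.40, adjusted p = 0.000609).

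Cytoskeletal genes rose in several families. In the tubulins, 4 of 16 tested members rose and 0 fell, with a median log2 change of 0.55. Tubb6, a beta-tubulin of low level in resting neurons, was at 2.91 to 12.6 CPM (median 8.97) in naive libraries and 44.6 to 68.0 CPM (median 54.4) at 72 h, and the groups were wide apart (log2 change 2.77 ± 0.29, adjusted p = 6.62e-10). Tubb2a, an abundant neuronal isotype, was at 382 to 463 CPM (median 423) in naive libraries and 719.9 to 1031 CPM (median 792) at 72 h. It gained about 2-fold without overlap (log2 change 1.00 ± 0.24, adjusted p = 0.00849). Among microtubule and actin regulators 8 of 49 tested members rose and 0 fell (7 and 0 without the 2 outlying libraries), with a median log2 change of 0.13, including Stmn2, the neuronal stathmin (log2 change 0.94 ± 0.18, adjusted p = 0.000735), and Myo10, a filopodial myosin (1.54 ± 0.23, adjusted p = 6.18e-06). The intermediate filament gene Vim rose (log2 change 0.65 ± 0.16, adjusted p = 0.0144), a call lost without naive replicate 4 at 0.61. Nefm, a neurofilament of large axons, was at 4517 to 6560.2 CPM (median 5028) in naive libraries and 2318 to 3193 CPM (median 2834) at 72 h. Its groups did not overlap, yet it did not pass (log2 change -0.92 ± 0.34, adjusted p = 0.182).

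Guidance and adhesion genes gave 5 higher and 1 lower of 74, with a median of -0.06. Besides Sema6a and Flrt3, Plxna4, a semaphorin receptor, was at 26.9 to 65.7 CPM (median 57.1) in naive libraries and 143 to 272 CPM (median 192) at 72 h, without overlap (log2 change 1.91 ± 0.21, adjusted p = 3.39e-09). Chl1, an adhesion protein of the L1 family, was at 25.8 to 56.6 CPM (median 34.2) in naive libraries and 101 to 180.0 CPM (median 118) at 72 h, also without overlap (log2 change 1.74 ± 0.21, adjusted p = 5.74e-08). Of integrins, laminins and partners, 4 of 34 tested members rose and 0 fell, with a median log2 change of -0.04. Itga7 was at 36.2 to 77.0 CPM (median 58.0) in naive libraries and 263 to 520.0 CPM (median 350.5) at 72 h, and its usual partner Itgb1 at 103 to 151 CPM (median 129.6) in naive libraries and 179 to 273 CPM (median 226) at 72 h. Both rose with groups apart, Itga7 by 2.75 and Itgb1 by 0.79 log2 units (adjusted p = 5.72e-13 and 0.00075). Cd44, a hyaluronan receptor, rose too (log2 change 0.72 ± 0.19, adjusted p = 0.0207), a call lost without naive replicate 5 at 0.66.

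Genes of synaptic vesicles and release moved both ways: 3 of 53 tested members rose and 6 fell (3 and 4 without the 2 outlying libraries), with a median log2 change of -0.22. Rph3a, a Rab3 effector, was at 128 to 204 CPM (median 168) in naive libraries and 71.5 to 102 CPM (median 81.9) at 72 h. It fell without overlap (log2 change -1.02 ± 0.15, adjusted p = 7e-06). Snap25, the SNARE protein of release, fell by 0.96 log2 units (adjusted p = 0.00474), and Synpr, a vesicle protein, by 0.87 (adjusted p = 0.00233). Syt4, a synaptotagmin of dense-core vesicles, was at 337 to 457 CPM (median 368) in naive libraries and 566 to 842 CPM (median 629) at 72 h. It rose without overlap (log2 change 0.81 ± 0.17, adjusted p = 0.00183), as did Erc2 of the active zone (log2 change 0.72 ± 0.16, adjusted p = 0.00332). Stx1a, another SNARE protein, was higher as well (log2 change 1.49, adjusted p = 0.00437).

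In the integrated stress response and amino acid supply list, 4 of 34 tested members rose and 0 fell (3 and 0 without the 2 outlying libraries), with a median log2 change of 0.38, and 28 of 34 log2 changes were above 0. Mthfd2, a mitochondrial folate enzyme, was at 19 to 30.9 CPM (median 22.7) in naive libraries and 33.7 to 57.1 CPM (median 45.3) at 72 h, without overlap (log2 change 0.93 ± 0.20, adjusted p = 0.00267). Slc1a4, a transporter of neutral amino acids, was at 11.8 to 31.8 CPM (median 17.8) in naive libraries and 36.9 to 54.7 CPM (median 46.5) at 72 h, also apart (log2 change 1.18 ± 0.26, adjusted p = 0.00382), and Slc7a1, which carries arginine and lysine, rose (0.90 ± 0.22, adjusted p = 0.00912). The call of Slc7a1 was lost without the 2 outlying libraries and within the libraries under 15% Rn45s and Lars2. Asns, asparagine synthetase, passed (log2 change 0.95 ± 0.27, adjusted p = 0.0379) with overlapping groups, and the call was lost when any 1 of 11 of the 14 libraries was left out. Of 22 cytosolic tRNA synthetases 4 rose, none fell and all 22 log2 changes were above 0, with a median of 0.36. Aars, which charges alanine tRNA, was at 51.4 to 68.9 CPM (median 62.2) in naive libraries and 88.3 to 133 CPM (median 124) at 72 h, without overlap (log2 change 0.94 ± 0.17, adjusted p = 0.000126), and Gars, for glycine, had 0.87 ± 0.21, adjusted p = 0.0107. Hars and Yars passed closely (adjusted p = 0.0449 and 0.0226), and their calls were lost when any 1 of 12 and any 1 of 7 of the libraries was left out.

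None of 35 genes of endoplasmic reticulum chaperones and the secretory pathway passed (edgeR), with a median of 0.02, against 6 at an unadjusted p under 0.05, 1 in limma voom and 5 in DESeq2. Unlike the other 2 tools, DESeq2 was fitted to the naive and 72 h IP libraries alone, here and below. Hsp90b1 had a log2 change of -0.37 ± 0.19, adjusted p = 0.448 and Xbp1 -0.14 ± 0.31, adjusted p = 0.937. In the tetrahydrobiopterin and polyamine list, 3 of 23 tested members rose and 0 fell (1 and 0 without the 2 outlying libraries), with a median log2 change of -0.04, and 10 of 23 log2 changes were above 0. Odc1, the first enzyme of polyamine synthesis, was at 23.1 to 51.6 CPM (median 36.4) in naive libraries and 70.3 to 87.2 CPM (median 75.0) at 72 h, without overlap (log2 change 1.12 ± 0.23, adjusted p = 0.00189). The others that passed were the antizyme inhibitors Azin1 (0.58 ± 0.16, adjusted p = 0.0264) and Azin2 (1.23 ± 0.32, adjusted p = 0.0198). Leaving out naive replicate 5 or naive replicate 6 ended the call of Azin1 at 0.57, and any 1 of 6 libraries that of Azin2. In cholesterol and fatty acid synthesis 3 of 38 tested members rose and 0 fell, with a median log2 change of 0.10. Abca1, which exports cholesterol, was at 35.2 to 60.4 CPM (median 42.9) in naive libraries and 112 to 225 CPM (median 148) at 72 h, and Hsd17b7, an enzyme of cholesterol synthesis, at 21.6 to 44.9 CPM (median 34.9) in naive libraries and 67.4 to 132 CPM (median 91.3) at 72 h. Both rose without overlap (log2 changes 1.81 ± 0.18, adjusted p = 1.37e-10 and 1.50 ± 0.21, adjusted p = 1.73e-06).

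Of 80 cytosolic ribosomal protein genes 1 passed, Rpl12 (log2 change 1.05 ± 0.28, adjusted p = 0.0251), a call lost without 72 h replicate 5, naive replicate 6 or naive replicate 7. Rpl10a, the protein that carries GFP in many TRAP lines, was at 5.61 to 9.53 CPM (median 8.69) in naive libraries and 9.92 to 20.4 CPM (median 15.5) at 72 h. Its groups did not overlap, but it did not pass (log2 change 0.84 ± 0.39, adjusted p = 0.352). One of 74 respiratory chain genes fell, Ndufb5 (-0.63 ± 0.18, adjusted p = 0.0462), which was lost when any 1 of 13 of the 14 libraries was left out. DESeq2 called 6 of them. Over all genes tested in edgeR, 1.70% were higher and 0.858% lower. Within the 2 naive and 3 72 h libraries under 15% Rn45s and Lars2, 40 of the 74 were lower, against 0 within those over 15%. Apoptosis and survival genes gave 4 higher and 1 lower of 37 (3 and 1 without the 2 outlying libraries). The one that fell was Bnip3, a mitochondrial death and mitophagy protein, at 71.3 to 102 CPM (median 81.9) in naive libraries and 41.6 to 55.4 CPM (median 47.9) at 72 h, without overlap (log2 change -0.74 ± 0.18, adjusted p = 0.0108). In the circadian and glucocorticoid list, 2 of 31 tested members rose and 4 fell (2 and 3 without the 2 outlying libraries), with a median log2 change of -0.37. Zbtb16 and Tsc22d3, which glucocorticoids induce, fell (log2 changes -1.58 ± 0.37, adjusted p = 0.00638 and -0.92 ± 0.22, adjusted p = 0.0102).

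Of 15 tested genes of the epidermal envelope and keratinocytes 3 rose (2 without the 2 outlying libraries, 2 in limma voom and 1 in DESeq2), and the median log2 change over the 15 was -0.42. Besides Sprr1a these were Lipn, a lipase of the skin, and Lce1g, a late envelope protein. Lipn had 2 counts in the naive libraries together and 144 at 72 h, a ratio of 50.8 (95% counting interval 13.8 to 424), and no library at 72 h exceeded 3.59 CPM (adjusted p = 0.0281). Its call was lost when any 1 of 8 of the 14 libraries was left out. Lce1g had 1 and 99 counts, a ratio of 69.9 (12.3 to 2786), with groups that overlapped at 0 (adjusted p = 0.00912). That call was lost with limma voom, DESeq2 and within the libraries under 15% Rn45s and Lars2. Keratinocyte markers were at or near 0: Krt5 had no count in 6 of 7 libraries of each group, and Krt14 and Krt1 had means of 0.847 and 1.04 CPM in naive and 0.496 and 0.519 CPM in 72 h libraries.

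General neuronal genes gave 3 higher and 3 lower of 31 (4 and 3 without the 2 outlying libraries), immediate early genes 3 higher of 28, injury-induced Schwann cell genes 1 higher of 18 and cell division genes 1 higher of 38. None of 24 Schwann cell and myelin, 26 fibroblast, 30 endothelial and mural, 24 neutrophil and lymphocyte, 19 skeletal muscle or 38 interferon response genes passed in edgeR, against 1 to 8 per list at an unadjusted p under 0.05, 0 in limma voom and 0 to 3 in DESeq2. At the shares over all genes tested in edgeR, 1.70% higher and 0.858% lower, lists of this size would hold few calls. Satellite glia genes gave 2 lower of 23 (Aldoc and Sfrp5, with adjusted p of 0.0265 and 0.0489), both lost when any 1 of 10 and any 1 of 13 of the 14 libraries was left out. Macrophage genes gave 1 higher and 1 lower of 30: Mrc1, a scavenger receptor, was at 7.15 to 31.0 CPM (median 16.7) in naive libraries and 33.2 to 55.7 CPM (median 41.5) at 72 h, without overlap (log2 change 1.22 ± 0.28, adjusted p = 0.00633), and H2-Aa, an antigen presentation gene, fell (log2 change -0.97 ± 0.27, adjusted p = 0.0398), a call lost when any 1 of 11 libraries was left out. Within the libraries under 15% Rn45s and Lars2, 7 macrophage genes were higher and 0 lower, and within those over 15% 0 and 2. The summed level of the macrophage list was 471 to 2365 CPM in naive and 657 to 965 CPM in 72 h libraries. In the neutrophil and lymphocyte list 2 of 24 log2 changes were above 0 and the median was -1.06, with a summed level of 84.5 to 1813 CPM in naive and 113 to 428 CPM in 72 h libraries.

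The lowest median of the lists was that of adipocyte and erythrocyte genes: of 15 tested erythrocyte and adipocyte genes 4 were lower, the median log2 change was -1.66, and the summed level was 71.0 to 769.9 CPM in naive and 43.0 to 91.8 CPM in 72 h libraries. Adipoq, the adipokine that defines adipocytes, was at 0.17 to 11.1 CPM (median 4.12) in naive libraries and 0 to 0.385 CPM (median 0.0973) at 72 h. It was below 0.5 CPM in all 72 h libraries and in 2 naive ones (log2 change -4.88 ± 1.30, adjusted p = 0.0242), and the call was lost when any 1 of 8 of the 14 libraries was left out. Cfd, Cidec and Lpl fell as well (log2 changes -3.83 ± 0.86, adjusted p = 0.00675, -3.31 ± 0.87, adjusted p = 0.0226 and -1.96 ± 0.44, adjusted p = 0.00479), Cidec not without naive replicates 1 or 7 or 72 h replicates 1, 3 or 4. Plin1, the other defining adipocyte marker, did not pass (log2 change -1.66 ± 0.92, adjusted p = 0.504). Skeletal muscle genes leaned upward without passing, with 18 of 19 log2 changes above 0, a median of 0.97 and a summed level of 287 to 593 CPM in naive and 203 to 1821 CPM in 72 h libraries. The part of these cells in the other results was not tested.

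The falls of largest size among genes without overlap and above 5 CPM were in other genes. Comp, a matrix protein of cartilage and tendon, was at 18.4 to 70.0 CPM (median 37.8) in naive libraries and 5.26 to 9.22 CPM (median 7.31) at 72 h. The naive libraries spread widely, and all lay above 72 h (log2 change -2.48 ± 0.45, adjusted p = 0.000318). Scx, a transcription factor of tendon cells, was at 7.65 to 19.9 CPM (median 13.4) in naive libraries and 2.77 to 7.55 CPM (median 3.89) at 72 h (log2 change -1.71 ± 0.42, adjusted p = 0.0107). Hs6st2, a heparan sulfate sulfotransferase, was at 24.0 to 61.4 CPM (median 30.1) in naive libraries and 4.13 to 17.7 CPM (median 8.53) at 72 h. Naive replicate 4 was its highest library, and the groups were apart (log2 change -1.79 ± 0.31, adjusted p = 0.000128). Also without overlap were Bhlhb9 (log2 change -1.74), Galm (-1.67), Thrsp (-1.59), Vstm2l (-1.49), Spock3 (-1.42), Tmem255a (-1.40) and Hapln4 (-1.35), with adjusted p from 4.55e-05 to 0.00658. The call of Hapln4 was lost without the 2 outlying libraries.

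Genes in none of the lists were chosen for their small adjusted p after their values were seen. Lmo7, a LIM-domain protein of cell junctions, was at 6.81 to 20.9 CPM (median 9.86) in naive libraries and 96.5 to 168 CPM (median 109.8) at 72 h (log2 change 3.22 ± 0.29, adjusted p = 8.75e-12). Camk1, a calcium-calmodulin kinase, was at 18.6 to 35.7 CPM (median 31.5) in naive libraries and 108 to 246 CPM (median 174) at 72 h (log2 change 2.69 ± 0.26, adjusted p = 5.19e-11). Sdc1, a heparan sulfate proteoglycan, was at 6.47 to 20.4 CPM (median 10.7) in naive libraries and 58.1 to 88.6 CPM (median 75.6) at 72 h (log2 change 2.63 ± 0.26, adjusted p = 8.66e-11). In each of them every 72 h library lay above every naive one, and the same held for Adam8, a membrane metalloprotease (3.67), Hn1 (1.92), Serpinb1a, a protease inhibitor (2.11), Sbno2 (2.07), Col5a3, a collagen chain (1.80), Rhoq, a small GTPase (1.66), and Cd63, a tetraspanin of late endosomes (1.41). E230016M11Rik rose by 3.26 log2 units (adjusted p = 2.9e-09). Its promoter window lies within the span of Gadd45a on the opposite strand, and since counting by strand is not stated in the sources used here, its reads and those of Gadd45a cannot be told apart.

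Among the falling genes chosen in the same way, Cd55, a complement regulator, was at 104 to 168 CPM (median 132) in naive libraries and 47.0 to 65.0 CPM (median 54.3) at 72 h (log2 change -1.30 ± 0.20, adjusted p = 8.96e-06). Prkar2b, a regulatory subunit of protein kinase A, was at 95.8 to 153 CPM (median 129.8) in naive libraries and 52.5 to 73.1 CPM (median 63.3) at 72 h (log2 change -1.08 ± 0.17, adjusted p = 1.23e-05). Both were lower in all 72 h libraries than in any naive one. Ogfrl1 (-1.08), Trappc3l (-1.06), Ldb2 (-0.98), Sorl1, a sorting receptor (-0.97), Nipal3 (-0.93) and Lrrc49 (-0.88) fell likewise without overlap. From the rule on largest rises, Igfn1 was at 0.17 to 4.07 CPM (median 0.68) in naive libraries and 7.49 to 41.5 CPM (median 14.6) at 72 h and 1700003F12Rik at 0.17 to 2.08 CPM (median 0.387) in naive libraries and 13.7 to 19.5 CPM (median 17.3) at 72 h, with log2 changes of 4.00 ± 0.76, adjusted p = 0.000456 and 4.29 ± 0.63, adjusted p = 3.58e-06.

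Total RNA of ganglia (Input, 7 libraries at 72 h and 7 naive) shows how the change in pulled-down RNA compared with that of whole ganglia. In Input 746 of 19584 genes were higher (3.81%) and 488 lower (2.49%). Input libraries held 9869384 to 16912222 counts in naive mice and 11241988 to 16114631 at 72 h. Their median shares of Rn45s and Lars2 were 14.9% and 9.10%, against 32.1% and 20.9% in IP. Fraction, depth and this share therefore cannot be told apart in the numbers of genes called. Of the 317 genes higher in pulled-down RNA, 270 were also higher in Input, 85.2% of the IP list and 36.2% of the Input list. For the 160 lower genes the number was 114, 71.2% of the IP list and 23.4% of the Input list, and no gene passed in opposite directions. Median log2 changes of the higher genes were 1.30 in IP and 1.17 in Input within a common fit, and of the lower genes -0.92 and -0.85. As the genes were chosen by their calls in the same IP libraries, these medians do not compare the sizes of the responses. The 2 fractions may come from the same ganglia, which the labels do not state. Same-numbered IP and Input libraries of naive replicates 1 and 2 had opposite Xist and Ddx3y.

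The difference between the IP and Input responses reached an adjusted p under 0.05 in 0 genes (0%) of 19584 in edgeR, at a smallest adjusted p of 0.0765. At an unadjusted p under 0.05 it was 1120 genes (5.72%), and limma voom gave 0. In simulated counts this test recovered 34% of 2-fold differences, so that 0 genes does not mean equal responses. Cckbr had a log2 change of 5.64 in pulled-down RNA. In Input it had 2 counts in the naive libraries together and 1562 at 72 h, a ratio of 752 (95% counting interval 208 to 6216), so that no difference between its responses is given. Gpr151 changed by 4.70 in pulled-down RNA and 7.55 in whole ganglia, a difference of -2.85 ± 0.88 (adjusted p = 0.427). Naive IP replicate 1 stood high in Gpr151 and Sprr1a, at 7.55 and 7.18 CPM against group medians of 0 and 0.259 CPM. In the fit of IP libraries alone, leaving out 1 library in turn gave log2 changes of 4.33 to 6.46 for Gpr151. For Sprr1a the same range was 7.895 to 10.23, so that both differences depend on single libraries. For Sprr1a the log2 changes were 8.25 in pulled-down RNA and 9.49 in whole ganglia, a difference of -1.24 ± 0.87 (adjusted p = 0.952), for Atf3 5.33 in pulled-down RNA and 5.76 in whole ganglia, a difference of -0.43 ± 0.36 (adjusted p = 0.976), for Gal 5.83 in pulled-down RNA and 5.97 in whole ganglia, a difference of -0.14 ± 0.43 (adjusted p = 1) and for Tac1 -0.89 in pulled-down RNA and -0.79 in whole ganglia, a difference of -0.11 ± 0.23 (adjusted p = 1).

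**Figure D4:**
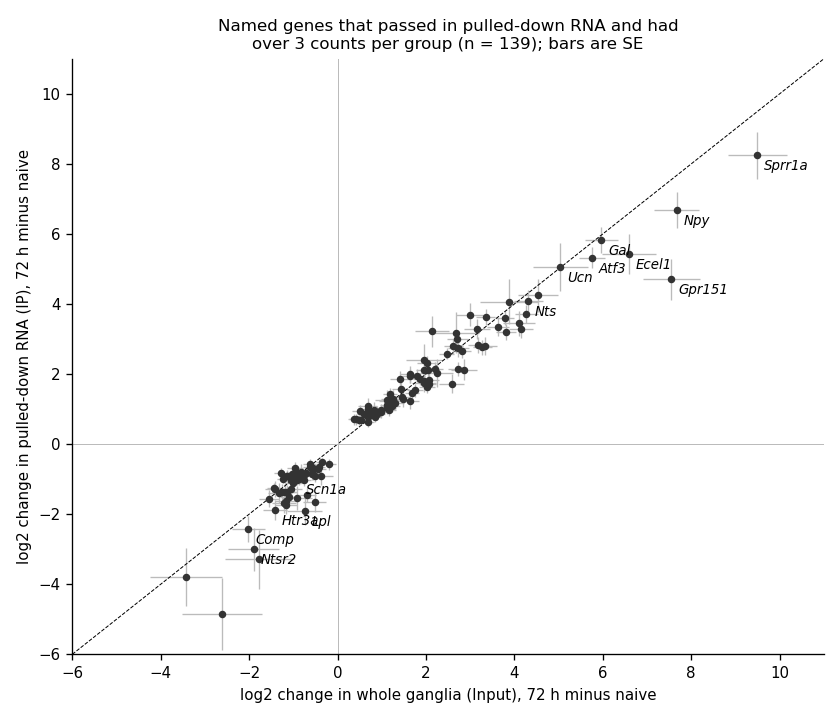
Log2 change from naive to 72 h in pulled-down RNA (vertical axis) against that in whole ganglia (horizontal axis) for the named genes that passed in pulled-down RNA and had over 3 counts in each of the 4 groups, with SE bars from 1 fit and a dashed line where both are equal. Most points lie along the line, and Gpr151 (4.70 against 7.55) lies below it. Its naive IP level was high in replicate 1 alone.

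Against the time point before, 0 of 18656 genes (0%) passed in pulled-down RNA between the 7 libraries at 72 h and the 6 at 48 h in edgeR, with a smallest adjusted p of 0.0738. An unadjusted p under 0.05 was reached by 775 genes (4.15%), limma voom called 6 and edgeR with RLE size factors 2. In simulated counts this test recovered 52% of 2-fold changes, so that 0 genes does not mean equal levels. The 48 h libraries had 5.35% to 59.7% of counts on Rn45s and Lars2, against 9.50% to 21.9% at 72 h. Of these, 48 h replicates 4 and 6 had 59.7% and 51.9%, with 4004836 and 3997259 counts in all. The part of this share in the result was not tested. Levels of the marker genes at 72 h were nominally higher than at 48 h. Sprr1a had a mean of 169 CPM at 48 h and 321 CPM at 72 h, Ecel1 25.2 and 45.2 CPM, and Cckbr 10.8 and 15.4 CPM, none of which passed. Atf3 stood at 259.6 and 260.0 CPM. All 48 h libraries had more counts on Xist than on Ddx3y, as did all but 2 of the 7 at 72 h.

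From 72 h to 7 d (4 libraries) 1280 genes rose (6.86%) and 1184 fell (6.35%). The 7 d libraries were deeper, with 12440226 to 16721527 counts, and had 1.37% to 8.16% of counts on Rn45s and Lars2, so that time, depth and this share cannot be told apart here. Without 7 d replicate 4, 1199 genes passed in all. Cckbr rose on from 15.4 to 52.1 CPM (log2 change 1.76, adjusted p = 0.0107), and Npy from 114 to 301 CPM (1.40, adjusted p = 0.042). Sprr1a, from 321 to 893 CPM, did not pass (adjusted p = 0.0765). Kif22 and Sox11 came down, from 168 to 60.5 CPM (-1.48, adjusted p = 0.000693) and from 305 to 172 CPM (-0.83, adjusted p = 0.0189). Calb1, low at 72 h, was back at 29.3 CPM at 7 d (1.77, adjusted p = 4.37e-05). These comparisons share the 72 h libraries with that against naive mice.

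**Figure D5:**
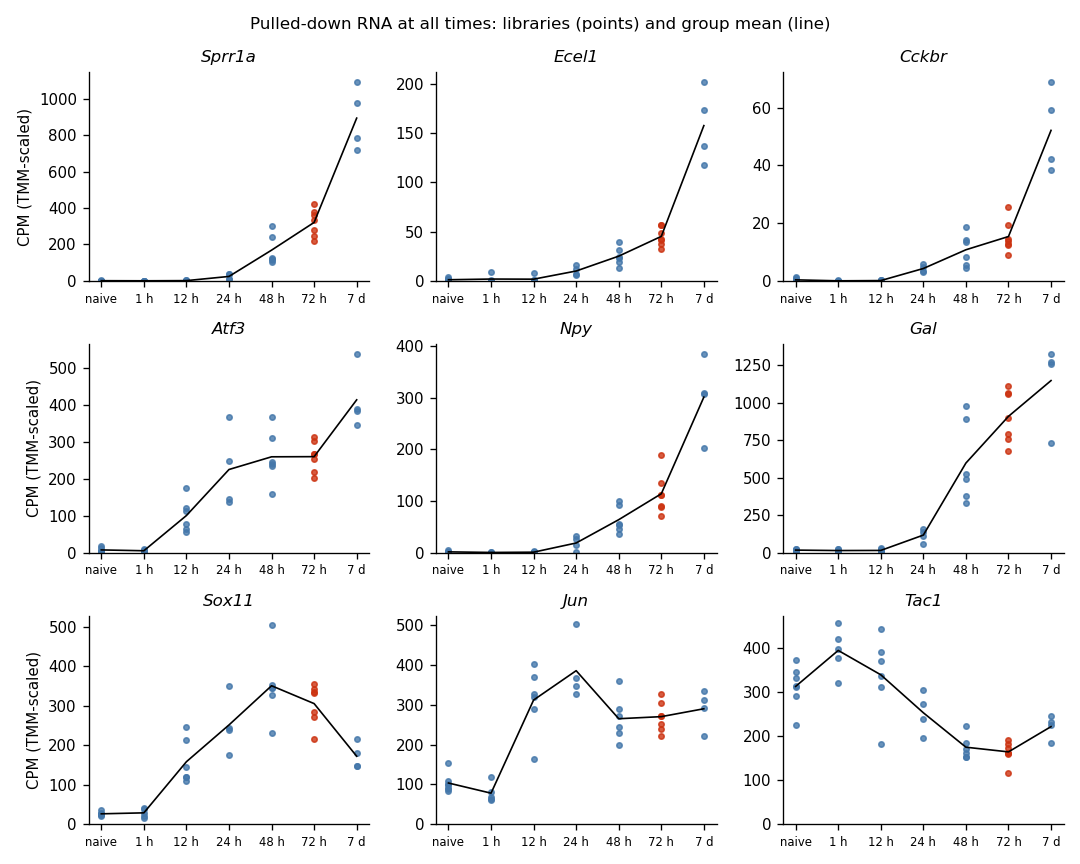
Level of 9 genes in every IP library from naive to 7 d, in TMM-scaled CPM from 0, with 72 h libraries in red, other times in blue and a line through the group means. At 72 h Sprr1a, Ecel1, Cckbr, Npy and Gal are above their naive level and rise along the later times, Atf3 and Jun are up from 12 h on, Sox11 has its highest mean at 48 h, and Tac1 is low from 48 h.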

How the data were processed

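RNA from L4-5 ganglia was sequenced with SMART-Seq v4 and Nextera XT as 75 bp paired-end reads, per the labels' protocols. Per the submitters' processing notes, bcl2fastq 2.17, STAR and HTSeq were used with GRCm38 or mm10, and no settings are named in what was read here. The authors deposited read counts per gene symbol, not normalized. Of 24060 symbols, 27 that read as dates were left out (0.106% to 0.162% of counts). A table of counts per interval with a repeat element name was not used here.

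Counts of all 39 IP libraries, in 7 groups by label, were fitted in edgeR 4.0.16 (R 4.3.3) with TMM, filterByExpr and robust quasi-likelihood tests, with Benjamini-Hochberg adjustment over all genes tested and a threshold of 0.05. Input came from 1 fit of all 79 libraries. Each SE is the log2 change over the root of its F statistic, and CPM values use TMM-scaled library sizes. Replicate numbers did not pair the naive with the 72 h libraries: deviations of same-numbered ones correlated at -0.102 to 0.197. For IP and Input of the same number they correlated at -0.106 to 0.156 in naive mice and 0.0538 to 0.0952 at 72 h. The best Input match had the same number for 72 h replicates 1, 2, 3, 4 and 7 and naive replicate 7. The main fit of both fractions did not pair them. With same-numbered libraries as a block 0 genes differed in response, but this block joins naive libraries with opposite Xist and Ddx3y, so it is no paired check. Xist and Ddx3y were at 252 and 1.82 CPM (without TMM scaling) in naive IP replicate 1, and 0 and 34.1 CPM in Input. In replicate 2 they were at 0.527 and 45.4 CPM in IP, and 27.4 and 0.382 CPM in Input. The gene with more counts also differed in naive replicate 6 and 72 h replicate 5, and matched in the other naive and 72 h pairs. Among 42 pairs of libraries within the groups none was identical, and the chi-square over degrees of freedom was at least 12.7. The fits were tested on simulated counts with known changes in genes above 5 CPM. For 72 h against naive IP, 52% of 2-fold and 91% of 4-fold changes were recovered, and 4.03% of calls were unchanged genes. Against 48 h these shares were 52%, 89% and 6%. For 7 d against 72 h they were 35%, 79% and 5.79%, and for IP minus Input responses 34%, 90% and 8.15%.

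The comparison, its marker genes and the 45 gene lists (1503 genes, 1439 tested) were chosen with earlier results of these data known, and 98 genes stand in more than 1 list. Named genes are the 12 rises and 12 falls with the largest change among passing genes without overlap and with a mean of at least 5 CPM, up to 4 passing members of each list (or 2 of highest level), all injury transcription factors, neuropeptides and sodium channels, and the largest differences in the other comparisons. Other passing list members were named after their values were seen. Results of some genes are not reported here. Promoter windows and gene positions are RefSeq's (GRCm38.p6), and 17620 of 18656 tested symbols matched. Genes with 1 to 3 counts in a group are given as ratios with 95% counting intervals. Overlapping and antisense genes could share reads. Alternatives were RLE size factors, no filter, a 1 CPM filter, leaving out Rn45s and Lars2, limma 3.58.1 voom, the Xist to Ddx3y ratio as a covariate, DESeq2 1.42.0, the replicate block, and leaving out each library. A block for libraries under or over 15% Rn45s and Lars2, fits within those classes and leaving out both outlying libraries were chosen after seeing the data. For 72 h against naive IP, DESeq2, the replicate block, the class block and the fits within classes used only the naive and 72 h libraries.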

Additional observations from a re-analysis of the deposited data

Results flagged for a closer look

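Within the 7 naive and the 7 72 h IP libraries, 1 library lay far from the others of its group in 22 of 286 sets of 7 values, from 140 named genes that passed and library measures. A set counted when the gap from the extreme library to its neighbour, over the range of the group, exceeded Dixon's 95% critical value. Chance gives about 1 in 20 such sets. Replicate 5 of the 72 h IP libraries was set apart in Cidec (high, 4.46 CPM against a group median of 0.925 CPM), Il4ra (low, 18 CPM against a group median of 51.5 CPM), Klf6 (low, 94.0 CPM against a group median of 146 CPM), Ogfrl1 (low, 46.9 CPM against a group median of 76.1 CPM) and Smad1 (low, 61.8 CPM against a group median of 142 CPM). Replicate 1 of the naive IP libraries was set apart in Gpr151 (high, 7.55 CPM against a group median of 0 CPM), H2-Aa (high, 247 CPM against a group median of 88.7 CPM), Lpl (high, 56.0 CPM against a group median of 21.1 CPM) and Sprr1a (high, 7.18 CPM against a group median of 0.259 CPM). Replicate 4 of the naive IP libraries was set apart in Hs6st2 (high, 61.4 CPM against a group median of 30.1 CPM), Igfn1 (high, 4.07 CPM against a group median of 0.68 CPM), Lce1g (high, 0.194 CPM against a group median of 0 CPM) and Npy (high, 5.23 CPM against a group median of 0.519 CPM). Replicate 2 of the 72 h IP libraries was set apart in Lce1g (high, 3.99 CPM against a group median of 0.693 CPM) and Scn2b (low, 7.04 CPM against a group median of 16.8 CPM). Replicate 6 of the naive IP libraries was set apart in Gfra1 (low, 18.3 CPM against a group median of 52.9 CPM) and Myo10 (low, 23.8 CPM against a group median of 48.8 CPM). Replicate 1 of the 72 h IP libraries was set apart in Tac1 (low, 116 CPM against a group median of 162 CPM). Replicate 6 of the 72 h IP libraries was set apart in Scx (high, 7.55 CPM against a group median of 3.89 CPM). Replicate 2 of the naive IP libraries was set apart in Lipn (high, 0.166 CPM against a group median of 0 CPM). Replicate 5 of the naive IP libraries was set apart in Smad1 (high, 91.9 CPM against a group median of 61.2 CPM). Replicate 7 of the naive IP libraries was set apart in Jun (high, 153 CPM against a group median of 98.4 CPM). Lce1g and Lipn lie under 5 CPM throughout, where a few reads set the values. The causes were not tested.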

How the results depend on the processing

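The counts of 317 higher and 160 lower genes moved by over 1.5 times, at least in part, under these settings. With only the naive and 72 h IP libraries they were 487 and 360 in edgeR. DESeq2, fitted to these same libraries alone, gave 690 and 654. A block for the class of Rn45s and Lars2 share, also on these alone, gave 560 and 438. With the replicate number as a block (replicate block), in a design whose numbers do not pair the libraries, they were 562 and 356. Within the libraries under 15% Rn45s and Lars2 the lower genes were 354, and without both outlying libraries 82. Leaving out 1 library gave 244 to 321 higher and 83 to 142 lower genes, with 83 when 72 h replicate 3 was left out. Of the 317 higher genes 298 were shared with limma voom, 249 without both outlying libraries, 240 within the libraries under 15% and 185 within those over 15%, and of the 160 lower genes 142, 78, 93 and 76. The other settings (RLE size factors, limma voom, a 1 CPM filter, no filter, without Rn45s and Lars2, their share or the Xist to Ddx3y ratio as a covariate, without libraries over 50% Rn45s and Lars2, and within those over 15%) kept both counts within 1.5 times, and so did leaving out the outlying libraries for higher genes (261).

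For 72 h against 48 h, RLE size factors gave 2 genes, the Xist to Ddx3y ratio 2 and limma voom 6, against 0, and for the difference between IP and Input leaving out 1 library gave 0 to 3. For 7 d against 72 h, 2464 genes became 4538 with limma voom and 1637 with the replicate block, and 1199 to 2159 when a 7 d library was left out. The difference in Rn45s and Lars2 share, -10.4 percentage points, ran from -13.3 to -8.20 when 1 library was left out. Of 236 named genes with values under the alternatives, the 143 that passed kept their direction throughout, and 38 that did not pass took both signs. Over all alternatives 6403 of the named genes' values kept their side of the threshold, 318 lost it and 71 gained it. The cause of these differences between settings was not tested.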
